A study of Mus musculus with 8 samples.

Results

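Immune cells that sense bacteria switch on inflammatory genes and, with them, genes whose products shut the response down. The 10 genes described here encode such brakes: Tnfaip3 (A20), its binding partners Tnip1, Tnip2 and Tnip3 (the ABIN proteins), the deubiquitinase gene Cyld, the RNase genes Zc3h12a and Zc3h12c (regnases), and Zfp36, Zfp36l1 and Zfp36l2, which encode tristetraprolin and its relatives. They were chosen by name, and each was followed through every array probe whose transcript accession belongs to it in a RefSeq gene table. That gave 14 probes for the 10 genes, of 20887 genes matched in all. Of the 10 genes 4 had 2 probes (Tnip1, Tnip2, Tnip3 and Cyld) and 6 had 1.

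The cells were dendritic cells grown from bone marrow of C57BL/6 female mice. In both groups monocytes were cultured with IL-4 and GM-CSF (10 ng/ml). The immature group, 4 samples, was collected on day 6. The LPS group, 4 samples, received in addition lipopolysaccharide (LPS, the bacterial cell wall component sensed by Toll-like receptor 4) at 50 ng/ml overnight and was collected on day 7, so LPS and the further night in culture cannot be told apart. Replicates are numbered 1 to 4 in each group, and nothing in the labels says whether they came from separate mice or cultures, so the p-values measure the spread between these samples. Each sample was read on its own one-colour Agilent array.

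As background, signals from Toll-like receptors and TNF receptors travel through ubiquitin chains built on adaptor proteins, and these chains recruit the kinases that free NF-kB. A20 and CYLD remove or edit the chains, and the ABIN proteins bind both the chains and A20. A second set of brakes acts on messenger RNA. Regnases cut stem-loops, and tristetraprolin and its relatives bind AU-rich stretches, in the untranslated ends of cytokine transcripts, after which the transcripts are degraded. Several of these brake genes are themselves known targets of NF-kB.

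The start-site regions of these genes are shown first because a pair of ABIN genes that carried the same kind of motif changed differently on the arrays. A RefSeq promoter table on build GRCm38.p6 held 11 entries of 300 bases for 9 of the 10 genes, all except Zfp36l2. The NF-kB consensus, searched on both strands, occurred in 5 of the 11 entries, which belonged to 5 genes (Tnfaip3, Tnip1, Tnip3, Cyld and Zc3h12c). It occurred in 8.46% of all 32851 entries. The 150 bases before the start site are printed 5′ to 3′ on the strand of the gene, with matches in capitals. These are NF-kB matches for the first 3 genes and a CArG box, the element bound by serum response factor, for Zfp36. The windows are chr10:19015411-19015560 (minus strand), chr11:54962941-54963090 (minus strand), chr6:65590248-65590397 (plus strand) and chr7:28379229-28379378 (minus strand).
Tnfaip3: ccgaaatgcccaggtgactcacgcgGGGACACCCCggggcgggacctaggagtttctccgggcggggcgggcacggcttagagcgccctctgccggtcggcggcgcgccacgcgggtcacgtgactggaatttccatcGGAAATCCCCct
Tnip1: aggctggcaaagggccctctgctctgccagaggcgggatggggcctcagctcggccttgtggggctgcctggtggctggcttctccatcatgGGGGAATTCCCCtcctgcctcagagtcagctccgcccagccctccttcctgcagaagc
Tnip3: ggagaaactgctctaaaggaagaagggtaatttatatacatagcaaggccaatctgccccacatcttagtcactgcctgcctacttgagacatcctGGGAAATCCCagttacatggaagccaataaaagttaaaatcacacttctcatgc
Zfp36: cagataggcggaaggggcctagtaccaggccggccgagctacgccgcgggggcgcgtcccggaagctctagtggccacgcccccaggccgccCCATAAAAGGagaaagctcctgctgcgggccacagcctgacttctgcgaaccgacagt

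The Tnfaip3 window held 2 separate matches, which began 125 and 12 bases before the start site. It was printed because it held matches. The other Tnfaip3 entry (chr10:19011914-19012213, minus strand) held 0 matches to any of the 6 motifs searched. In Tnip1 a single run of capitals held 3 overlapping matches, the first beginning 58 bases before the start. The Tnip3 match began 54 bases before its start. The Zfp36 window had no NF-kB match, and its CArG box began 58 bases before the start. The CArG box occurred in 1 of the 9 genes and in 1.63% of all entries. The AP-1 site TGANTCA occurred in 2 genes (Tnfaip3 and Zfp36l1) and 7.81% of entries, the cAMP response element core TGACG in 3 and 20.8%, the TATA box TATAAA in 3 and 13.6%, and the STAT site TTCNNNGAA in 3 and 8.30%. These counts are of genes with a match in any of their entries, while the percentages are of single entries. A match describes letters only.

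After LPS, 7 of the 10 genes rose, 1 fell and 2 did not pass the test. Tnfaip3 rose most, 2.82-fold, followed by Zfp36 (2.20-fold), Zc3h12a (just over 2-fold) and Tnip1 (1.91-fold). The order after Tnfaip3 was different with normexp background correction on median signals. The Zfp36 and Zc3h12a probes were dim, and the reason for the different order was not tested. With normexp correction the log2 rises were 1.45 for Tnfaip3, 0.91 for Tnip1, 0.77 for Zfp36 and 0.75 for Zc3h12a. Zfp36l2 fell 2.68-fold while its relatives Zfp36 and Zfp36l1 rose. Tnip3 gave different answers on its 2 probes, and the brighter probe of Cyld did not pass. Changes were called at an adjusted p of 0.05 with limma, adjusted by the Benjamini-Hochberg method over 12707 genes, of which 31.4% rose and 24.7% fell. With arrays scaled to their median 4 of the 10 rose, with no scaling 3, and in both 1 fell. Of all 12707 genes 2615 rose and 4169 fell with median scaling, and 2428 and 4445 with no scaling. The median log2 change was 0.45 for the 10 genes and 0.06 for all genes tested.

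**Figure D1:**
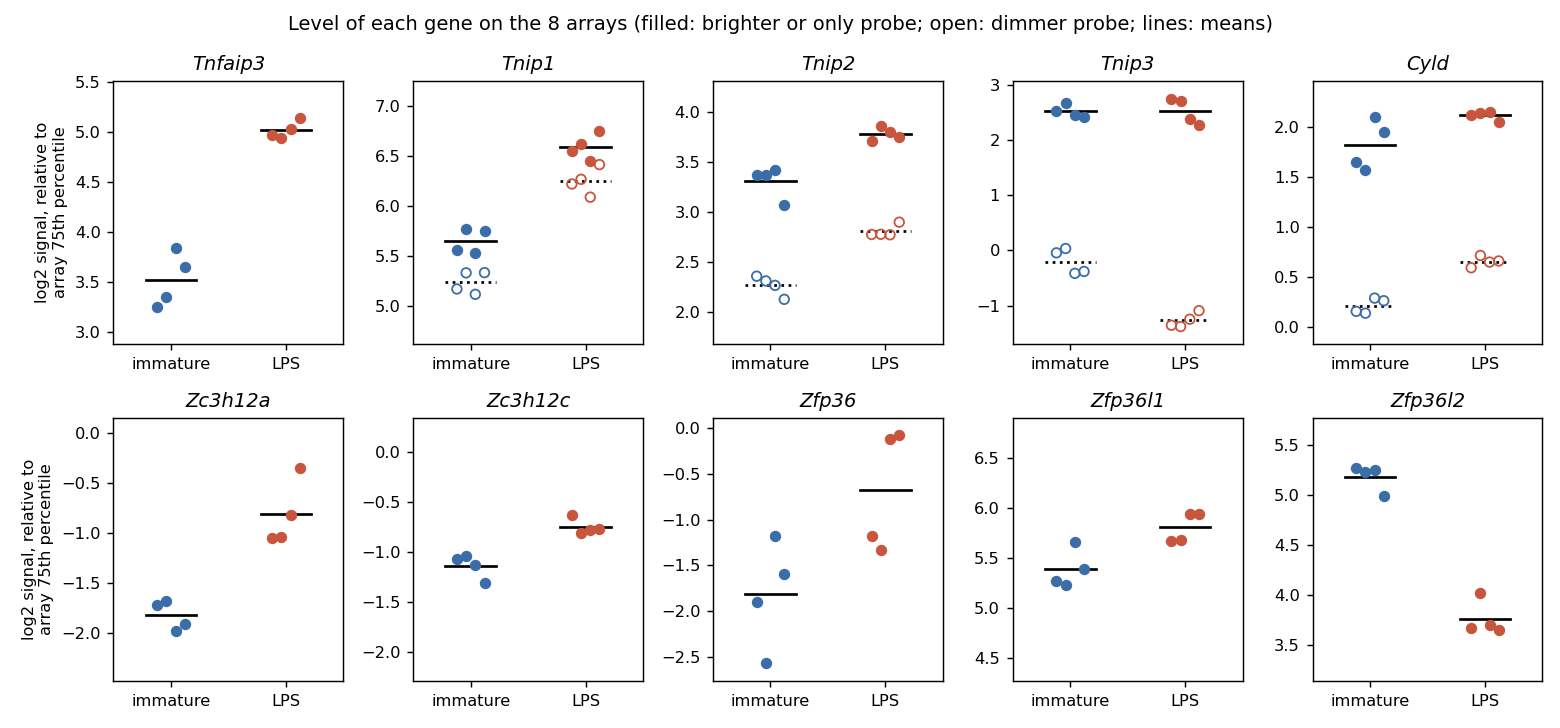
Scaled log2 signal (y axis, relative to the 75th percentile of the array) of each of the 10 genes in the 4 immature (blue) and 4 LPS (red) samples. Filled points are the brighter or only probe, open points the dimmer probe, and lines the group means. The groups are apart without overlap for 7 genes on the filled points and overlap for Tnip3, Cyld and Zfp36.

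All 14 probes were well above background on all 8 arrays, no spot was saturated, and no member was lost to the filter on dim probes. Levels below are log2 signals relative to the 75th percentile of the array's signals, so they compare a probe with itself between samples and not one gene with another. All arrays shared 1 slide, with row 1 holding the immature group and row 2 the LPS group, so row and treatment cannot be told apart. Immature replicate 3 stood apart from immature replicates 1 and 2 (correlation 0.981 with each across genes), and replicates 1 and 2 were the closest pair in each group (0.997 and 0.996). Immature replicate 3 had the highest immature level for 5 of the 10 genes and the lowest for 2. Without it 8 of the 10 rose and 1 fell, and of all 12946 genes then tested 4275 rose and 3623 fell. Among cell type markers the dendritic cell genes Itgax, H2-Ab1 and Ccr7 had immature means of 7.24, 8.03 and 6.75 log2, Flt3 and Zbtb46 had −1.72 and −1.76, and of the 8 dendritic cell markers 4 rose and 3 fell. All 6 tested neutrophil markers fell, with a summed scaled signal of 712 to 837 in the immature and 246 to 447 in the LPS samples, in multiples of the 75th percentile. The sums for macrophage markers were 326 to 377 and 324 to 383, for T cell markers 3.74 to 4.58 and 4.81 to 5.22, for B cell markers 0.711 to 2.57 and 0.516 to 1.48, and for mast cells and basophils 6.72 to 10.998 and 8.85 to 10.8. Of these lists 1 of 5 tested macrophage markers rose and 1 fell, 1 of 4 for T cells rose and 1 fell, 0 of 2 for B cells passed, and 1 of 5 for mast cells and basophils rose and 3 fell. Over all tested genes 31.4% rose and 24.7% fell. Similar sums hid opposite changes: Mrc1 fell 18.7-fold while Adgre1 rose 1.91-fold. Likewise Mcpt8, Fcer1a and Cpa3 fell (4.39-, 2.74- and 3.90-fold) while Kit rose 3.82-fold. The neutrophil genes S100a8 and S100a9 had immature means of 7.94 and 8.60. Of the defining lymphocyte genes, Cd79a, Pax5, Cd3g and Cd8a were not tested because they were too dim. The part of other cells in the changes below was not tested, and in bulk samples fewer cells of a type and less RNA per cell cannot be told apart.

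Tnfaip3 encodes A20, which carries a deubiquitinase domain and ubiquitin-binding zinc fingers. Its level was 3.25, 3.36, 3.84 and 3.65 on immature replicates 1 to 4 and 4.97, 4.94, 5.03 and 5.14 on LPS replicates 1 to 4. Every LPS sample lay above every immature sample, by at least 1.09, and the LPS samples were close together while the immature ones spread. The log2 change was 1.49 ± 0.13 (SE, n = 4 per group; limma adjusted p = 4.67e-05). It ranged from 1.29 to 1.60 over 20 other ways of processing and kept its call in all of them.

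Cyld encodes the tumour suppressor deubiquitinase that acts on the same kinds of chains. Its brighter probe read 1.65, 1.57, 2.09 and 1.95 in the immature and 2.12, 2.14, 2.15 and 2.04 in the LPS samples. The groups overlapped, since immature replicate 3 lay above LPS replicate 4. The change of 0.30 ± 0.12 did not pass (limma adjusted p = 0.0664), but without immature replicate 3 it was 0.39 with an adjusted p of 0.0121. It also passed with normexp background correction (0.28, adjusted p = 0.0465) and the mean of its probes (0.37, 0.00917). It was smaller with median scaling (0.12, adjusted p = 0.362), no scaling (0.09, 0.514) and scaling on detected probes (0.22, 0.178). The dimmer Cyld probe read 0.16, 0.14, 0.29 and 0.26 against 0.59, 0.72, 0.65 and 0.66. On that probe the groups were apart and the change, 0.44 ± 0.07, passed over all probes (limma adjusted p = 0.00137). The log2 ratio of Tnfaip3 to Cyld was 1.61 to 1.78 in the immature and 2.80 to 3.09 in the LPS samples.

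Of the 3 ABIN genes, whose products link A20 to ubiquitin chains, Tnip1 and Tnip2 rose and Tnip3 did not pass on its brighter probe. Tnip1, encoding ABIN-1, read 5.56, 5.77, 5.53 and 5.75 in the immature and 6.55, 6.62, 6.45 and 6.75 in the LPS samples on its brighter probe. It rose by 0.94 ± 0.09 (SE; limma adjusted p = 8.79e-05), with no overlap, and its dimmer probe rose by 1.01 ± 0.10 (adjusted p over probes = 8.37e-05). Tnip2, encoding ABIN-2, a partner of the kinase TPL2, read 3.37, 3.37, 3.42 and 3.07 before and 3.71, 3.86, 3.80 and 3.75 after LPS. Its groups were also apart, by a gap of 0.29, and immature replicate 4 was the low one. The change was smaller, 0.47 ± 0.09 (adjusted p = 0.00283), and its dimmer probe rose by 0.54 ± 0.08. The brighter probe no longer passed with median scaling (0.30, adjusted p = 0.0530) or no scaling (0.27, adjusted p = 0.0660).

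Tnip3, encoding ABIN-3, was the member whose probes disagreed. The brighter probe read 2.53, 2.68, 2.46 and 2.43 in the immature and 2.75, 2.71, 2.39 and 2.27 in the LPS samples. The groups overlapped and the change was 0.01 ± 0.13 (limma adjusted p = 0.967). The dimmer probe read −0.04, 0.03, −0.41 and −0.38 in the immature and −1.36, −1.38, −1.25 and −1.09 in the LPS samples, and all LPS samples lay below all immature ones. It fell by 1.07 ± 0.13 (adjusted p over probes = 0.000266). Both probes are listed under the same Tnip3 transcript, and the files give no sequence or position for them. The change on the brighter minus that on the dimmer probe was 1.07 log2 (exact permutation test, two-sided, p = 0.0286, which is the lowest possible with these group sizes; 0.0571 adjusted over the 4 genes with 2 probes). Among 3292 genes with more than 1 tested probe the median gap between the changes of the 2 brightest probes was 0.12, and 96.7% of genes had a smaller gap than Tnip3. The gaps were 0.07 for Tnip1 and Tnip2 and 0.14 for Cyld. The exact permutation test gave Tnip1 the same p-values as Tnip3 (0.0286, and 0.0571 adjusted), so these p-values do not set Tnip3 apart from Tnip1.

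Counted by probe, 10 of the 14 rose, 2 fell and 2 did not pass, where 26.0% of 25942 tested probes rose and 23.7% fell.

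**Figure D2:**
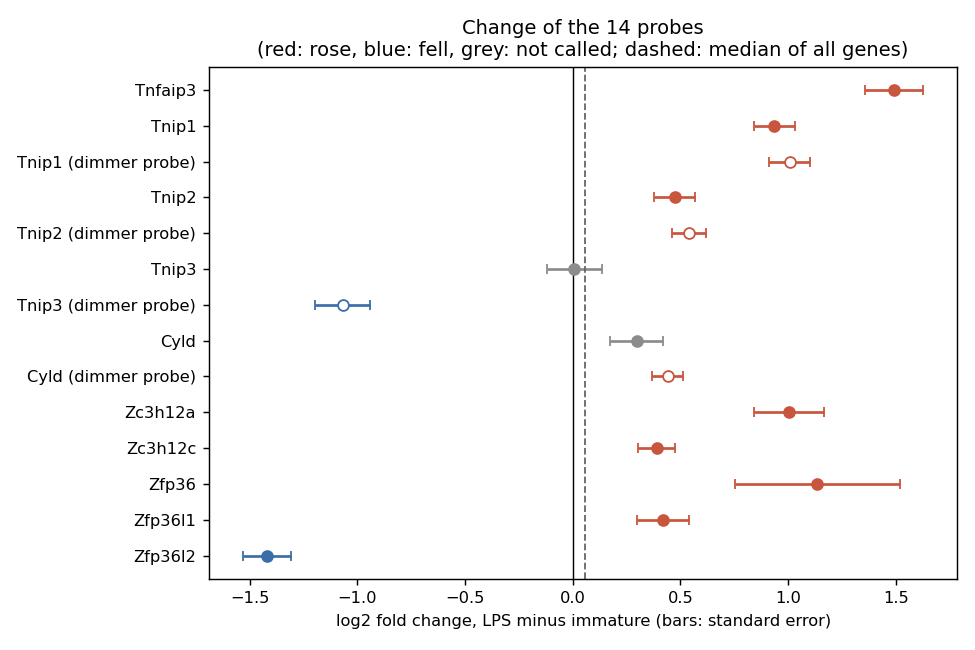
Log2 change from immature to LPS (x axis, bars are the standard error, n = 4 per group) for the 14 probes. Red points rose, blue fell and grey were not called. The points run from −1.42 for Zfp36l2 to 1.49 for Tnfaip3, and the 2 Tnip3 probes lie at 0.01 and −1.07. The dashed line is the median of all genes, 0.06.

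The regnases were dim. Zc3h12a, encoding regnase-1, an RNase that degrades transcripts such as Il6, had processed signals of 117 to 150 in the immature and 193 to 330 in the LPS samples. Its scaled levels were −1.72, −1.67, −1.97 and −1.91 before and −1.04, −1.04, −0.82 and −0.35 after LPS. The groups did not overlap, and LPS replicate 4 was the highest. The rise was 1.00 ± 0.16 (SE; limma adjusted p = 0.00104) and kept its call in 20 of 20 alternatives, with values from 0.75 to 1.12. Zc3h12c, a relative with the same RNase fold, read −1.06, −1.04, −1.13 and −1.31 before and −0.63, −0.80, −0.78 and −0.77 after LPS. Its groups were apart by 0.24 and it rose by 0.39 ± 0.08 (adjusted p = 0.00456). It no longer passed with arrays scaled to their median (0.21, adjusted p = 0.117) and with no scaling (0.18, adjusted p = 0.186).

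Among the tristetraprolin family, whose members bring deadenylases to AU-rich transcripts, Zfp36 was the most variable. It read −1.90, −2.57, −1.18 and −1.59 in the immature and −1.17, −1.33, −0.11 and −0.08 in the LPS samples. Its probe was dim, with processed signals of 81 to 201 in the immature and 158 to 398 in the LPS samples. LPS replicates 1 and 2 lay at the level of immature replicate 3, so the groups overlapped, and LPS replicates 3 and 4 stood more than 1 log2 unit above LPS replicates 1 and 2. The pooled SD within groups was 0.63, larger than that of 96.5% of tested genes, whose median was 0.18. The rise of 1.14 ± 0.38 passed (limma adjusted p = 0.0327), and with normexp background correction it was 0.77 (limma adjusted p = 0.0336). It no longer passed without immature replicate 1, 2 or 4 (adjusted p = 0.0695, 0.0781 and 0.0523), without LPS replicate 3 or 4 (0.0837 and 0.0825), with no scaling (0.0591) or with replicates 1 and 2 averaged (0.0505). The direction was upward in all of them.

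Zfp36l1, a relative of tristetraprolin, read 5.27, 5.23, 5.66 and 5.39 in the immature and 5.67, 5.68, 5.94 and 5.94 in the LPS samples. Immature replicate 3 all but touched the lowest LPS sample, with a gap of 0.01. It rose by 0.42 ± 0.12 (limma adjusted p = 0.0166). It no longer passed with median scaling (adjusted p = 0.0989), no scaling (0.158), quantile normalization (0.0696) and replicates 1 and 2 averaged (0.0563).

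Zfp36l2, the remaining relative, went the other way. It read 5.27, 5.23, 5.25 and 4.99 in the immature and 3.67, 4.02, 3.71 and 3.65 in the LPS samples. Every LPS sample lay below every immature one, by at least 0.97. It fell by 1.42 ± 0.11 (SE; limma adjusted p = 2.13e-05). A change lower than this was seen in 5.27% of tested genes. It kept that call in 20 of 20 alternatives, with changes between −1.63 and −1.38. Over the 10 genes the arrays were apart with LPS higher for 6 and with LPS lower for 1, where 30.1% and 22.3% of all tested genes were apart in those directions.

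Unequal change between relatives was tested on the log2 ratio of 2 genes on the same array, which array scaling by a constant leaves as it is. Of 8 pairs compared, 6 changed, each with an exact two-sided permutation p of 0.0286, the smallest possible, and 0.0381 adjusted over the 8 pairs. In these 6 pairs all LPS ratios lay on the same side of all immature ratios. Without immature replicate 1, 2 or 3, 0 of the 8 pairs passed the same exact permutation test (lowest adjusted p = 0.0571, with 4 pairs below 0.05 unadjusted). Without immature replicate 4 or LPS replicate 4 there were 5, and without LPS replicate 1, 2 or 3 there were 6. With 1 array left out few splits of the arrays remain, so p moves in coarse steps that adjustment over 8 pairs can lift above 0.05. The same number of splits remains whichever array is left out. Why more calls were lost without immature replicate 1, 2 or 3 was not tested. The directions did not turn. The ratio of Zfp36l1 to Zfp36l2 rose by 1.84 ± 0.18 (SE, n = 4 per group) and that of Zfp36 to Zfp36l2 by 2.56 ± 0.50. Both ratios were higher in every LPS sample than in any immature sample. The ratio of Zfp36 to Zfp36l1 moved by 0.72 ± 0.33, which did not pass (exact permutation p = 0.143). Tnfaip3 gained 1.20 ± 0.07 on Cyld, and Zc3h12a gained 0.61 ± 0.19 on Zc3h12c. Tnip3 lost ground to Tnip1, by −0.93 ± 0.16 with the brighter probes and −2.07 with the dimmer ones. Against Tnip2 the figures were −0.47 ± 0.14 and −1.61. Tnip1 against Tnip2 moved by 0.46 ± 0.15 and did not pass (exact permutation p = 0.0571, 0.0653 adjusted), though with the dimmer probes it did (0.47, adjusted p = 0.0327).

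**Figure D3:**
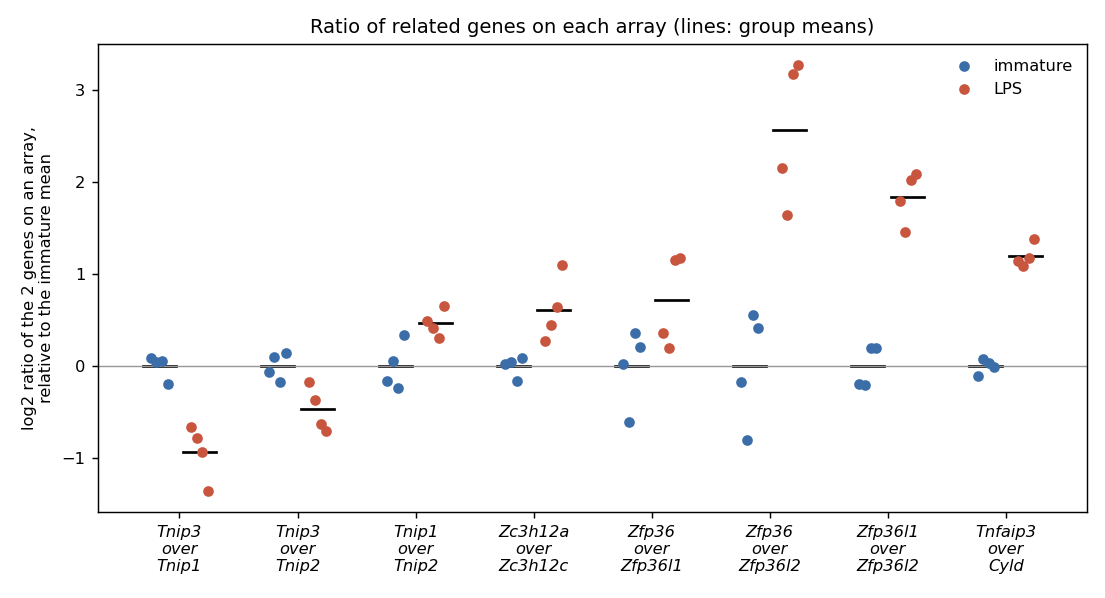
Log2 ratio of 2 related genes on each array (y axis, relative to the immature mean of that pair) for the 8 pairs, with immature samples in blue, LPS samples in red and group means as lines. In the LPS samples ratios to Zfp36l2 sit highest, with group means of 2.56 for Zfp36 and 1.84 for Zfp36l1. The ratios of Tnip3 in the LPS samples lie below 0. The groups overlap for Tnip1 over Tnip2 and for Zfp36 over Zfp36l1.

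The spread of Zfp36 within groups was shared by other genes of the response. In both groups replicates 3 and 4 lay above replicates 1 and 2 for Zfp36, Tnfaip3 and Zfp36l1, and for 714 of all tested genes (5.62%). Dusp1, encoding the phosphatase that switches off p38 and thereby the kinase that inactivates tristetraprolin, had 0.86, 0.59, 1.85 and 1.35 in the immature and 3.18, 3.34, 4.10 and 4.15 in the LPS samples. Ptgs2, encoding cyclooxygenase-2, had −3.24, −3.46, −1.08 and −1.91 against 2.10, 2.13, 3.92 and 4.29. The same order held for 8 of 17 tested genes of the target list below, and its cause was not tested.

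The genes whose pattern over the 8 arrays was most like that of Tnfaip3 were Dnajb2, Il1b, Nod2, Tap2 and Txndc12, with Pearson r from 0.997 to 0.999 among 12706 genes compared. As a description only, 1203 genes had r above 0.95, and the step between the groups is part of each r. Il1b, encoding the cytokine interleukin-1 beta, changed by 4.69 log2 and Nod2, a sensor of bacterial cell wall fragments, by 1.64.

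Around the 10 genes, lists of partners and targets written from textbook knowledge were read out in the same fit. Among 21 partners and fellow enzymes of ubiquitin editing 12 rose, 1 fell and 8 did not pass, with a median of 0.28. That is 57.1% rising and 4.76% falling, against 31.4% and 24.7% of all tested genes. Tax1bp1, the adaptor that brings A20 to its substrates, rose by 1.11 ± 0.07 (SE; limma adjusted p = 8.63e-06), and Rnf31, the catalytic subunit of the linear ubiquitin ligase, by 1.16 ± 0.07. Usp18, which removes ISG15, rose most, by 2.03 ± 0.09. Itch, a ubiquitin ligase that works with A20, fell by 0.65 ± 0.11. Otulin, which cleaves linear chains, had −0.30 ± 0.12 and did not pass (adjusted p = 0.0665). Otulin did pass, lower after LPS, with normexp (adjusted p = 0.0498), median scaling (0.0186), no scaling (0.0124), quantile normalization (0.0282), detected-probe scaling (0.0253) and without immature replicate 3 (0.0314). With median scaling 5 of the 21 rose and 3 fell, and with no scaling 4 rose and 4 fell. Of all 12707 genes 2615 rose and 4169 fell with median scaling, and 2428 and 4445 with no scaling.

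Of 26 genes of the decay machinery 25 were tested (Zc3h12b was too dim), and 5 rose, 1 fell and 19 did not pass, with a median of 0.10. That is 20% rising and 4% falling, below the 31.4% and 24.7% of all tested genes. The scaffold Cnot1 and the deadenylases Cnot6, Cnot6l, Cnot7 and Cnot8, singled out after their values were seen, had changes between −0.11 and 0.14 and did not pass. In the same list Cnot2 rose by 0.21 (limma adjusted p = 0.0198), Ddx6 by 0.53 (0.00134) and Xrn1 by 0.39 (0.00155). Dcp1a, a decapping factor, rose by 0.84 ± 0.08 (SE; limma adjusted p = 4.97e-05). Zc3h12d, a further regnase, rose by 0.62 ± 0.21 (adjusted p = 0.0329), and no longer passed without any 1 of the arrays except immature replicate 3. Zc3h12d also failed with median scaling (0.44, adjusted p = 0.0781), no scaling (0.41, 0.104), detected-probe scaling (0.54, 0.0619) and replicates 1 and 2 averaged (0.50, 0.130). Cnot9 fell by 0.32 ± 0.12 (adjusted p = 0.0438), again lost without any 1 array except immature replicate 3, and also with the replicate number as a block (0.0787), normexp (−0.18, adjusted p = 0.139), no filter on dim probes (0.0601) and an intensity trend (0.0572). Rc3h1, encoding roquin-1, which binds many of the same stem-loops as regnase-1, had −0.16 ± 0.06 and did not pass (adjusted p = 0.0677), but passed with median scaling (−0.33, adjusted p = 0.00672), no scaling (−0.36, 0.00349) and detected-probe scaling (−0.23, 0.0182). With no scaling 2 of the 25 rose and 5 fell, and without immature replicate 3 the counts were 9 and 1. Over all genes 2428 rose and 4445 fell of 12707 with no scaling, and 4275 and 3623 of 12946 without that array.

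Regulators of these decay factors moved both ways: of 18 tested 8 rose, 4 fell and 6 did not pass, with a median of 0.04. That is 44.4% rising and 22.2% falling, against 31.4% and 24.7% of all tested genes. Dusp1 rose by 2.53 ± 0.32 (SE; limma adjusted p = 0.000307) and Arid5a, which shields Il6 transcripts from regnase-1, by 1.36 ± 0.11. Mapk14, encoding p38 alpha, fell by 0.57 ± 0.07, and Mapkapk2, the kinase that phosphorylates tristetraprolin, had 0.08 ± 0.10 and did not pass (adjusted p = 0.530). Elavl1, encoding HuR, a protein that binds and stabilizes AU-rich transcripts, fell by 0.38 ± 0.11 on its brightest probe (adjusted p = 0.0179). It no longer passed with the mean of its probes (0.01, adjusted p = 0.895), without immature replicate 2 (0.0504) or with replicates 1 and 2 averaged (0.0878). With no scaling 4 of the 18 rose and 6 fell, and without immature replicate 3 the counts were 7 and 7. Over all genes 2428 rose and 4445 fell of 12707 with no scaling, and 4275 and 3623 of 12946 without that array.

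Among 22 known target transcripts of regnase-1 or tristetraprolin 17 were tested, and 10 rose, 0 fell and 7 did not pass, with a median of 2.17. Of the tested targets 58.8% rose, where 31.4% of all tested genes rose and 24.7% fell. Il6 rose 48.1-fold and Ptgs2 46.3-fold (5.53 ± 0.69 log2; limma adjusted p = 0.000262). With normexp the Ptgs2 change was 4.62 log2. Il1b rose 25.9-fold and the neutrophil chemoattractant Cxcl2 5.79-fold. Tnf, a classical target of tristetraprolin, read 3.06, 2.77, 0.95 and 2.06 in the immature and 0.90, 1.00, 1.30 and 1.98 in the LPS samples. Immature replicate 3 was the low one of its group, and the change of −0.91 ± 0.45 did not pass (adjusted p = 0.119). Without that sample it was −1.33 and passed (adjusted p = 0.00932), and the list then counted 11 that rose and 1 that fell. Of all 12946 genes then tested 4275 rose and 3623 fell. Il10, Il23a, Csf2 and Rel were too dim to test and Il12b had no matched probe.

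**Figure D4:**
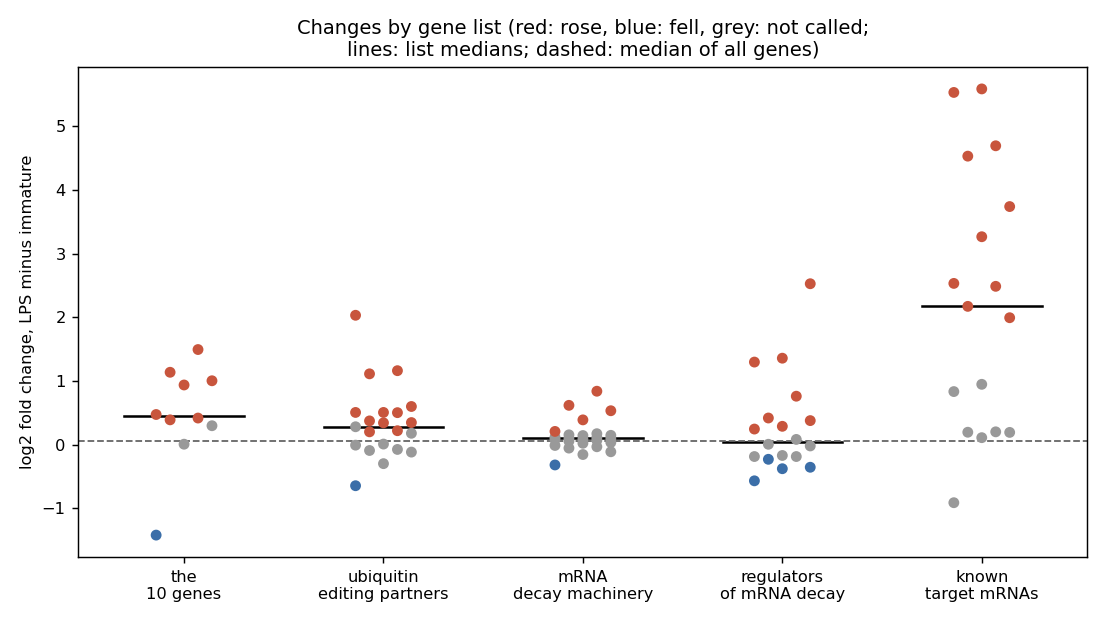
Log2 change from immature to LPS (y axis) of the 10 genes and of the tested members of 4 lists. Red points rose, blue fell, grey were not called, and lines are list medians: 0.45, 0.28, 0.10, 0.04 and 2.17 from left to right. The dashed line is the median of all genes, 0.06, and the target transcripts reach the highest values.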

How the data were processed

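Signals were extracted by Agilent Feature Extraction 11.0.1.1 according to the submitters' processing notes. The deposited processed signal is an intensity, background-subtracted and detrended, per the file headers, with no scaling across arrays, and the deposited files also hold raw median intensities and other columns of flags (0 or 1). RNA was labelled with Cy3, per the labels. From these, outlier spots were left out, spots of a probe averaged as log2 values, and each array's 75th percentile subtracted. Of 55681 probes 27509 matched a gene, the brightest probe stood for a gene, and 12707 genes well above background on all 4 arrays of a group were fitted with lmFit and eBayes (limma 3.58.1, R 4.3.3), two-sided, across all genes. Probes were fitted likewise. Ratios between members were compared with exact permutation tests over the 8 arrays. Alternatives covered background correction (normexp with offset 50 on median signals, as mean signals were not used here), scaling, dim-probe filters, probe choice, variance trend, the replicate block and each array left out; averaging replicates 1 and 2, and the dimmer probes, were chosen after seeing the data. The fit and the permutation test were tested on simulated data. The members and lists were chosen with earlier results of these data known. Named genes are all members, the 2 called genes with the largest rise and the 2 with the largest fall of each pathway list, 13 fixed genes, and the 5 genes most correlated with Tnfaip3. Gene positions are not given because the array design uses an older build. Figures used matplotlib 3.10.9.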

Additional observations from a re-analysis of the deposited data

Results flagged for a closer look

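Of 66 sets of 4 arrays examined (each named gene or second probe in each group), 5 held an array whose gap to its nearest neighbour took most of the range of the set, past the critical value at the 95% level; chance alone flags about 5% of sets. Tnip2 was low on immature replicate 4 (3.07, with the others from 3.37 to 3.42), and so was Zfp36l2 (4.99, with the others from 5.23 to 5.27). Zfp36l2 was high on LPS replicate 2 (4.02, with the others from 3.65 to 3.71). The dimmer Tnip2 probe was high on LPS replicate 4 (2.90, next 2.78). Dcp1a was low on LPS replicate 3 (1.17, next 1.30).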

How the results depend on the processing

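Tnfaip3, Tnip1, Zc3h12a and Zfp36l2 kept direction and call in all 20 alternatives run for each. Not all of these could alter the change. Tnfaip3, Zc3h12a and Zfp36l2 have 1 probe each, so the choice of probes left their changes as they were. The filters on dim probes altered only the adjusted p. Scaling changed the counts: with arrays scaled to their median 2615 genes and 4 members rose, and with no scaling 2428 genes and 3 members, since the median change of all genes moved by −0.17 and −0.21. Called genes split 56.0% upward in the chosen scaling, 38.5% with the median, 35.3% with none and 47.6% with detected probes. With no filter on dim probes 7627 genes rose. Averaging the probes of a gene, 2 members and 3048 of all 12707 genes fell, with Tnip3 at −0.53, and Elavl1 turned to 0.014. With dimmer probes 2 members fell as well, Tnip3 at −1.07, and 3137 of all genes. The ratio of Tnip1 to Tnip2 passed with normexp (0.47), the mean of probes (0.47) and dimmer probes (0.47). Leaving out 1 array kept the direction of each ratio. No ratio passed the exact permutation test without immature replicate 1, 2 or 3, while 5 or 6 passed without each of the other arrays. The reason for this difference was not tested. The ranges were −1.02 to −0.79 for Tnip3 to Tnip1, −0.56 to −0.39 for Tnip3 to Tnip2, 0.39 to 0.58 for Tnip1 to Tnip2, 0.45 to 0.73 for Zc3h12a to Zc3h12c, 2.29 to 2.86 for Zfp36 to Zfp36l2, 1.76 to 1.97 for Zfp36l1 to Zfp36l2, and 1.14 to 1.23 for Tnfaip3 to Cyld. Deviations of samples with the same replicate number correlated at −0.10 to 0.19 over all genes, so the numbers were not taken as pairs, although Zfp36 and others had the same order in both groups. With the replicate number as a block 3627 genes rose and 2979 fell, and 7 members rose and 1 fell (adjusted p = 0.00279 for Zfp36). Cnot9 did not pass with the block (0.0787). Replicates 1 and 2 averaged left 5 members rising, and 3052 of all 12707 genes. The median standard error was 0.12 log2, so changes near 0.3 were at the limit.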
